A study of Mus musculus with 15 samples.

Results

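Chromatin accessibility was compared between Ikaros-deficient and control bone marrow derived macrophages late in the response to lipopolysaccharide, after 8 h, in 5 of the 15 DNase-seq libraries of the study. The 5 libraries, all from C57BL/6J mice and all given 10 ng/ml LPS for 8 h, were 2 with the genotype Ikzf KO (KO 1 and KO 2), 2 from wild type (WT 1 and WT 2) and 1 from a littermate control, and the last 3 served together as controls. The remaining 10 libraries covered the same genotypes at 0 h and 3 h. Nuclei of WT 2 were digested with 100 U of DNase I and those of the other 4 libraries with 80 U, per the sample titles, whereas the protocol text gives 80 U/ml without an exception for WT 2. The labels do not say which Ikzf gene or exon was deleted, nor the genotype of the littermate, nor whether replicate libraries came from different animals. The p-values below therefore reflect the spread among these libraries, and that spread may be technical.

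Lipopolysaccharide comes from the outer membrane of Gram-negative bacteria. Macrophages sense it through Toll-like receptor 4, which sets off early and late waves of inflammatory gene expression. Ikaros, the zinc finger protein encoded by Ikzf1 and named in the study's title, binds DNA and is best known from lymphocyte development, where it acts together with chromatin remodelling complexes and can both repress and activate its target genes. DNase I digests DNA most readily where nucleosomes are displaced, as at promoters and enhancers, and stretches with many cuts are called hotspots. A hotspot listed in one genotype and missing from the other can mark a stretch of chromatin whose accessibility differed. Its absence also depends on where each list ends.

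The authors deposited a separate hotspot list for each library, with coordinates in the mouse build mm9. Each hotspot has a highest tag density (MaxD), which is used below as its strength in the authors' units, and a Z-score. On chromosomes 1 to 19 the lists held 46530 hotspots for WT 1, 50212 for WT 2, 110569 for the littermate, 120507 for KO 1 and 127374 for KO 2. The WT lists ended at Z-scores of 7.98 and 8.35, whereas the littermate and KO lists reached down to between 3.40 and 3.65. Each list was therefore reduced to its 46530 strongest hotspots, and hotspots of the 5 lists that overlapped by 1 bp or more were joined, which gave 61828 union regions. The lists hold no read counts. MaxD values were whole multiples of a step specific to each library, and if all libraries were scaled alike, which the sources used here do not state, the relative depth was 0.683 to 0.712 in the 3 controls and 0.850 and 1 in KO. Depth and genotype cannot be told apart in this comparison. In such bulk samples, fewer cells with an open region and weaker digestion of it in each cell cannot be told apart either. No annotation of build mm9 was used here, so regions are given by position, and the targeted gene and cell type markers were not checked.

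At equal list length the KO hotspots were broader and had higher MaxD values. The lists were shortened by MaxD itself, and that of WT 1 was not shortened. MaxD at the last rank was 0.669 in WT 1, 5.21 in WT 2, 5.99 in the littermate and 6.98 and 6.88 in KO. The part of this cut, and of the scale of MaxD, in the differences below was not tested. The median hotspot length was 716 bp in WT 1, 749 bp in WT 2, 1000 bp in the littermate, 1141 bp in KO 1 and 1169 bp in KO 2. The 46530 hotspots covered 39.4, 41.7 and 58.0 Mb in the controls, in the same order, and 65.5 and 67.1 Mb in KO. Median MaxD was 11.2 ± 0.402 (SD, n = 3) in controls and 14.0 ± 0.0303 (SD, n = 2) in KO. The KO libraries lay above all 3 controls in each of these measures, as they did in the deposited list length and the median Z-score. With 2 against 3 libraries an exact two-sided permutation test cannot go below p = 0.2, which was its value for each of the 5 measures (0.2 after Benjamini-Hochberg adjustment over the 5).

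Of the 61828 union regions, 5722 were in both KO lists and in no control list (KO-only, 9.25% of union regions), 3375 were in all 3 control lists and in no KO list (control-only, 5.46%), and 29563 were in all 5 lists (shared, 47.8%). The other 23168 were in some lists of a side, or of both sides. KO-only and control-only regions had median lengths of 1000 and 956 bp, against 1558 bp for shared regions. These counts are a description without a test, and the rule asks for fewer lists on the KO side than on the control side. With an equal number of lists on each side, KO-only and control-only regions numbered 6737 and 4395 without WT 1 and 6448 and 4175 without WT 2. Without the littermate they numbered 7744 and 4786. With the littermate as the only control, the rule asks for fewer lists on the control side, and the larger number on the KO side did not hold. At the same list length, 7956 regions were then KO-only and 7924 control-only. In lists of 110569 hotspots, the full littermate list, there were 17892 and 34307. Under the other alternatives that kept lists at equal length and the WT libraries as controls, KO-only regions outnumbered control-only regions.

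KO-only regions reached higher ranks than control-only regions. Rank 1 is the hotspot with the highest MaxD of a list. The best KO-only region had a mean rank of 353.5 in the 2 KO lists, and the best control-only region a mean rank of 5978 in the 3 control lists. A mean rank of 5000 or better was held by 38 KO-only and 0 control-only regions, and a mean rank of 10000 or better by 145 and 28. Most of both classes lay lower, with median mean ranks of 34373.5 and 32787 of 46530.

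**Figure D1:**
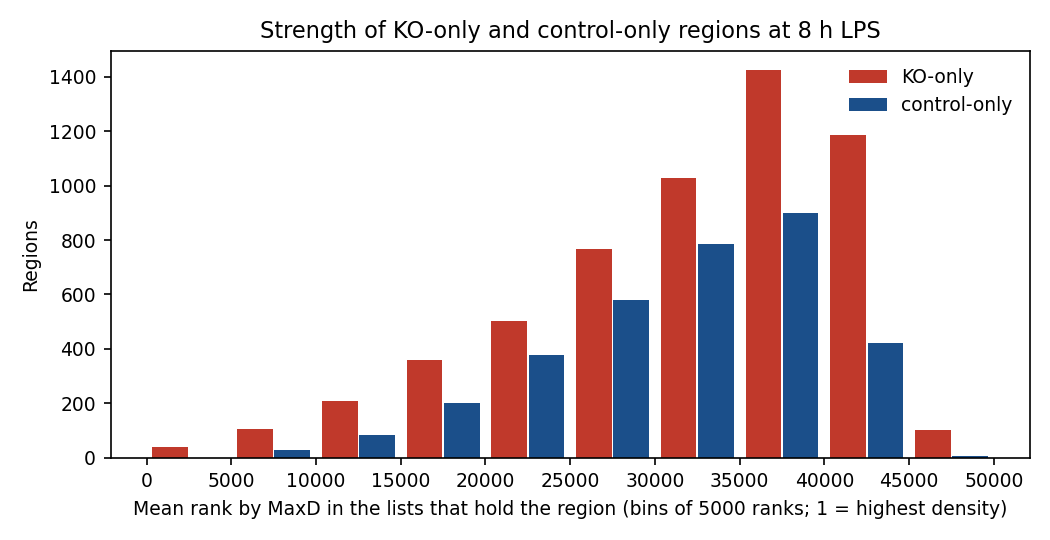
Number of regions (vertical axis) by mean MaxD rank in the lists that hold the region (horizontal axis, bins of 5000 ranks, rank 1 the densest), for KO-only regions (red) and control-only regions (blue) at 8 h LPS. Both classes are most frequent between ranks 35000 and 40000, with 1424 and 899 regions, and the bin of ranks up to 5000 holds 38 KO-only and 0 control-only regions.

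Absence from a shortened list often meant a lower rank in the deposited list, and more often so for control-only regions. In the deposited KO lists 81.6% (KO 1) and 84.1% (KO 2) of the control-only regions were present, at median ranks of 61429 and 61135. Of the KO-only regions, 51.8% (Wilson 95% interval 50.5 to 53.1%) were in the deposited littermate list, at a median rank of 60085, and 3.50% in that of WT 2. The list of WT 1 was the shortest and was not reduced, so it holds none of them by construction. In all, 2756 KO-only regions (48.2%, Wilson 95% interval 46.9 to 49.5%) were in no deposited control list, and 421 control-only regions (12.5%, 11.4 to 13.6%) were in no deposited KO list. The intervals cover counting error only, and the deposited KO lists are longer than every control list, which bears on both shares. Of the KO-only regions, 5175 (90.4%) had a Z-score of at least 8.35 in both KO lists, the level at which the WT 2 list ended. The same share was not computed for other regions. Z-scores also ran higher in KO, with medians in the shortened lists of 25.4 and 28.6 against 17.2 to 18.7 in controls. A given Z-score may thus not mean the same in KO and WT lists.

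The strongest KO-only regions were in no WT list at 8 h. For WT 1 this follows from the rule, and the WT 2 list of 50212 hotspots leaves little room beyond the 46530 used. The region at chr5:125706316-125707616 had a MaxD of 111 in KO 1 and 104 in KO 2, ranks 304 and 403, and was in no deposited control list at 8 h. At chr7:91404380-91406411 MaxD was 84.8 and 80.2 in the KO libraries (ranks 812 and 939) and 5.00 in the littermate (rank 56593). The region at chr9:7541726-7544476 had a MaxD of 73.4 and 89.9 in KO (ranks 1204 and 678) and 3.66 in the littermate (rank 69340). In both of these regions the littermate held a hotspot far down its list. The WT lists, which held none there, end before such ranks. The regions at chr8:106644626-106646408, chr9:71250998-71254072, chr12:112624379-112625473, chr1:135188037-135189564 and chr9:58552771-58554847 had KO ranks between 1176 and 1883 and were in no deposited control list at 8 h. The last 2 of the 10 named regions lay close to the list end in the littermate. At chr16:38694595-38696037 the littermate rank was 46589, just outside the 46530 used, against KO ranks of 1922 and 1962. At chr7:87213782-87215186 it was 46816, against 1758 and 2170.

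The strongest control-only regions were weaker than these and usually still listed in KO. The region at chr2:148397925-148399762 had a MaxD of 28.4 in WT 1, 30.2 in WT 2 and 38.3 in the littermate (ranks 7851, 6138 and 3946), and of 5.02 and 6.40 in KO 1 and KO 2 (ranks 58722 and 49219). At chr4:137434711-137436404 the control MaxD values were 29.8, 28.8 and 32.6, and the KO values 3.07 and 4.03. The region at chr13:61905136-61906284 had control MaxD values of 25.1, 28.5 and 29.6 (ranks 9105, 6735 and 6355) and was in no deposited KO list at 8 h. Among the 10 named control-only regions it was the one without a hotspot in either KO library. At chr12:33963316-33964554 and chr10:13762149-13763400 KO 1 held a hotspot, at ranks 73124 and 63715, and KO 2 held none. The remaining 5, at chr7:38379087-38380175, chr8:25824077-25826657, chr3:87204887-87206040, chr16:55588752-55590367 and chr11:115060106-115061033, had control ranks between 4414 and 11075 and KO ranks between 51172 and 92039.

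**Figure D2:**
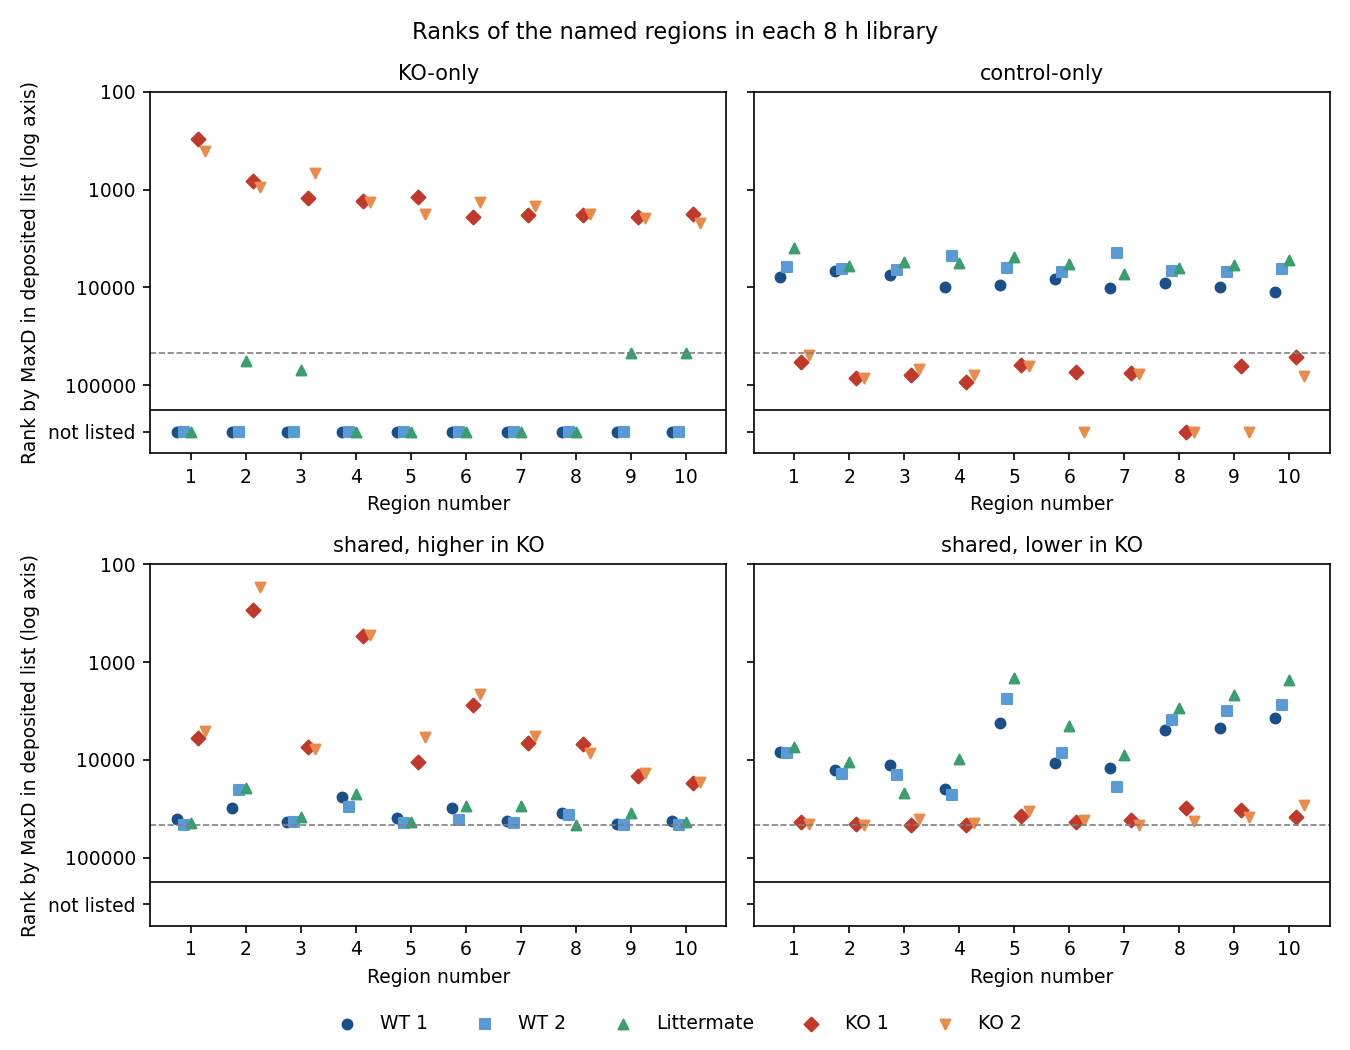
MaxD rank in the deposited 8 h list of each library (vertical log axis, best rank at the top, a separate band for regions not listed) of the 10 named regions in each of 4 classes; the dashed line is rank 46530, the length of the shortened lists. KO-only regions have KO ranks from 304 to 2170 and are either not listed or past the line in controls. In the shared classes the ranks of KO and control libraries do not overlap in any of the 20 regions, nor in any other called region. Among all shared regions 53.3% are without overlap.

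Differences were also present among the 29563 regions found in all 5 lists. MaxD ranks were turned into normal scores (the position of each rank on a standard normal distribution, with higher scores for denser regions) and compared with limma. At an adjusted p under 0.05 (limma, Benjamini-Hochberg over all shared regions), 2600 regions (8.79%) ranked higher in KO and 2825 (9.56%) ranked lower, 18.4% together, and 10227 had an unadjusted p under 0.05. The called regions moved far. Those higher in KO had a median rank of 10449 in KO and 25969 in controls, with a median score difference of 1.02. Those lower in KO had median ranks of 30194 and 13955 and a median difference of -0.99. Over all shared regions the median difference was 0.0024, and since the scores have the same mean in every library, rises and falls offset each other by construction. Without KO 1 there were 401 higher and 655 lower, and without KO 2 there were 361 and 651; these fits have fewer degrees of freedom, and the lone KO library is assumed to vary like the controls. With the littermate as the only control at the same list length, 760 were called higher and 270 lower, with the lone control assumed to vary like the KO libraries.

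**Figure D3:**
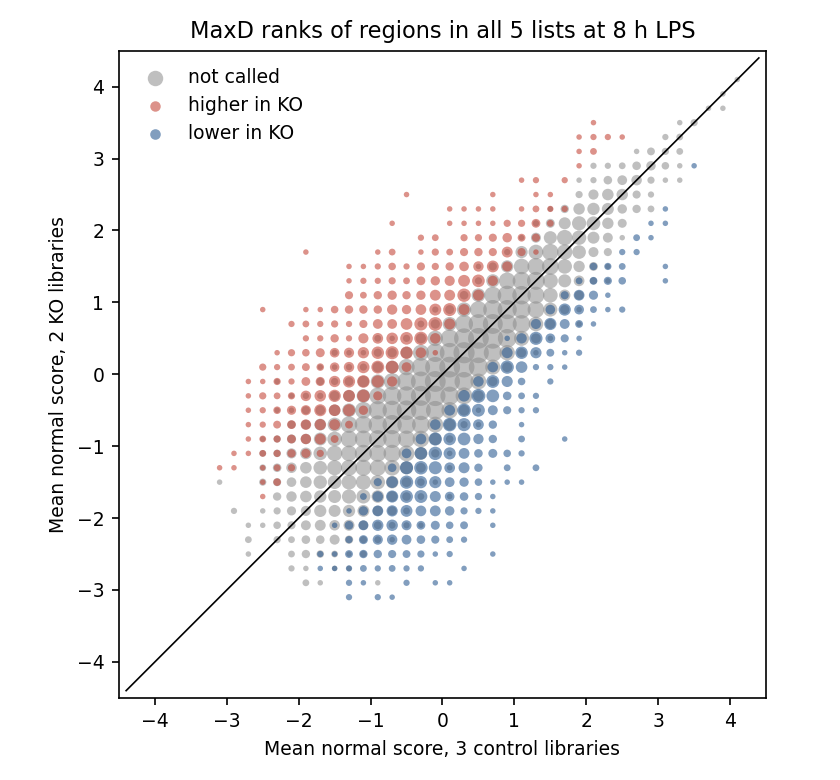
Mean normal score of MaxD ranks in the 3 control libraries (horizontal axis) and the 2 KO libraries (vertical axis) for the 29563 regions in all 5 lists at 8 h, binned, with larger points for more regions. Red points are the 2600 regions called higher in KO and blue points the 2825 called lower, on either side of the line of equal scores.

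The direction of the calls differed with the rank in controls, which is itself one side of the contrast. Of the 7391 shared regions that ranked highest in controls, 2.37% were called higher in KO and 10.3% lower. Of the 7391 that ranked lowest, 18.2% were called higher and 3.86% lower. Rank orders resembled each other most between the KO libraries, with a Spearman correlation of 0.961 over the shared regions, followed by pairs of controls at 0.898 to 0.926. Pairs of a KO and a control library reached 0.760 to 0.793. These correlations run over regions of the same libraries and are given as a description.

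The named shared regions with higher ranks in KO stood in the middle or near the end of the control lists. At chr2:45435405-45437759 MaxD was 5.69, 5.21 and 6.33 in WT 1, WT 2 and the littermate and 36.0 and 39.1 in KO 1 and KO 2. The score difference was 3.34 (SE 0.316, adjusted p = 0.0032 by limma). The region at chr19:34336179-34338239 was among the densest of the genome in KO, with MaxD of 112 and 125 (ranks 293 and 169), and had 8.03, 12.8 and 13.3 in controls (ranks 30813, 20306 and 19612). Its score difference was 2.99 (SE 0.257, adjusted p = 0.0029 by limma). At chr5:44063301-44065844 MaxD was 96.8 in both KO libraries and 10.4, 9.03 and 11.7 in controls, a score difference of 2.79 (SE 0.204, adjusted p = 0.0029 by limma). In each of these 3 regions both KO values lay above every control value. KO and control ranks were without overlap in all 2600 regions called higher, and in 53.3% of all 29563 shared regions. The other 7 named regions of this direction, on chromosomes 2, 8, 9, 10, 11, 13 and 14, had score differences of 2.60 to 2.79 and adjusted p of 0.0029 to 0.0134 (limma). For 3 of them, at chr8:127851839-127853408, chr11:29553529-29555846 and chr13:33056429-33058654, the adjusted p rose to between 0.0511 and 0.0725 (limma) when either KO library was left out, with score differences of 2.53 to 2.70 in those smaller fits.

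Regions that fell in KO included some of the densest of the controls. At chr4:137417238-137418872 MaxD was 27.4, 24.6 and 27.3 in WT 1, WT 2 and the littermate and 7.53 and 7.12 in KO 1 and KO 2. The score difference was -3.09 (SE 0.204, adjusted p = 0.0029 by limma), and the region lay 15.8 kb from the control-only region on chromosome 4 named above. The region at chr7:17643120-17644925 had MaxD of 43.5, 46.5 and 56.6 in controls (ranks 4230, 2385 and 1441) and 8.93 and 9.96 in KO (ranks 37396 and 33706), a score difference of -2.75 (SE 0.222, adjusted p = 0.0029 by limma). At chr19:21986817-21989023 the control values were 47.2, 44.1 and 55.6 and the KO values 8.65 and 11.6. Its score difference was -2.62 (SE 0.256, adjusted p = 0.0033 by limma). The other 7 named regions of this direction had score differences of -2.98 to -2.62 and adjusted p of 0.0029 to 0.0140 (limma). With the littermate as the only control at the same list length, 5 of the 10, the one on chromosome 19 among them, had adjusted p of 0.0523 to 0.186 (limma) and score differences of -3.48 to -2.57. That fit has 1 control library and takes its spread from the KO libraries, so these p-values say little about the regions.

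KO-only and control-only regions were found on every autosome. KO-only regions made up between 7.80% (chromosome 19) and 10.4% (chromosome 9) of the union regions of a chromosome, and control-only regions between 4.36% (chromosome 11) and 7.40% (chromosome 13). The number of KO-only regions per control-only region ran from 1.10 on chromosome 13 to 2.36 on chromosome 8. Most shared regions near KO-only or control-only regions were not called in either direction. A shared region within 10 kb was found for 2852 KO-only regions, and 15.0% of these nearest neighbours were called higher in KO and 5.75% lower. For the 1607 control-only regions with such a neighbour the shares were 4.17% higher and 18.4% lower. Over all shared regions they were 8.79% and 9.56%. Where the nearest shared region lay 10 to 50 kb away, the shares were 15.5% higher and 5.76% lower for KO-only regions and 5.76% and 13.8% for control-only regions. Neighbouring regions are not independent of each other, and this is given without a test.

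Regions of a class were counted in windows along the chromosomes, with no comparison to other regions, and the larger KO-only class has more chances to fill a window. Windows of 100 kb with at least 3 KO-only regions numbered 389 and held 24.6% of them, and 113 windows with at least 3 control-only regions held 10.9% of those. The densest windows are named here after their counts were seen. At chr11:46605879-46657254, 9 of 9 union regions in the window were KO-only. Each of the 9 was in both deposited KO lists at 0 h, 3 h and 8 h, none was in a WT list at any time, and 1 was in the littermate list at 3 h. The WT lists of 0 h and 3 h held only 15042 to 20628 hotspots, and the KO lists 107045 to 115966. At 8 h the 9 regions had mean KO ranks of 18189 to 42587, so their absence from those short WT lists says little. At chr4:57713893-57796521 and chr9:120713722-120795209, 8 regions each were KO-only, and 4 of each 8 were in the deposited littermate list at 8 h and none in a WT list. The densest control-only windows, at chr13:44510160-44597999 and chr13:78319217-78349770, held 6 each. In both, the deposited KO lists at 8 h still held 5 or 6 of the 6, at ranks outside the shortened lists. At 0 h and 3 h the deposited KO lists, longer than all control lists, held 4 to 6 of each 6. The WT lists of these times held 0 or 1, and the littermate lists 1 to 5.

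Libraries from 0 h and 3 h, which had no part in choosing the regions, showed the same split by genotype. In lists shortened within each time, to 16572 hotspots at 0 h and 15042 at 3 h, between 6.15 and 6.34% of the 8 h KO-only regions were present in the 4 KO libraries and between 0.017 and 0.682% in the 6 control libraries. Control-only regions were present at 0.237 to 0.652% in KO and 5.10 to 8.15% in controls. The KO and control libraries did not overlap in either share. Shared regions were present at 51.9 to 52.1% in KO and 46.9 to 48.8% in controls at 0 h. At 3 h they were present at 47.9 to 48.4% and 44.3 to 44.8%, so shared regions also differed by genotype within each time. If all libraries were scaled alike, the relative depth at these times was 0.741 to 0.848 in KO and 0.525 to 0.947 in controls, and its part in the result was not tested. The difference between the KO-only and the control-only share was 12.1 percentage points higher in KO than in control libraries (12.4 at 0 h and 11.7 at 3 h). An exact two-sided permutation test of genotype within time gave p = 0.02, the smallest that its 100 arrangements allow. Libraries of a genotype at different times may come from the same animals, which the labels do not say. The test permutes labels at each time separately and so takes the libraries of 0 h and 3 h as independent. If they are not, 2 against 3 series remain, and an exact two-sided permutation test over series cannot go below p = 0.2. The same dependence bears on the other permutation tests of these times. Without the littermate libraries the difference was 11.7 points (exact permutation p = 0.0556) and without the WT libraries 12.8 points (exact permutation p = 0.222), each the smallest p of its design. With all 15 lists at 15042 hotspots, where the regions themselves were also chosen at that length, the difference was 68.3 points (50.3 at 0 h and 86.3 at 3 h, exact permutation p = 0.02).

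**Figure D4:**
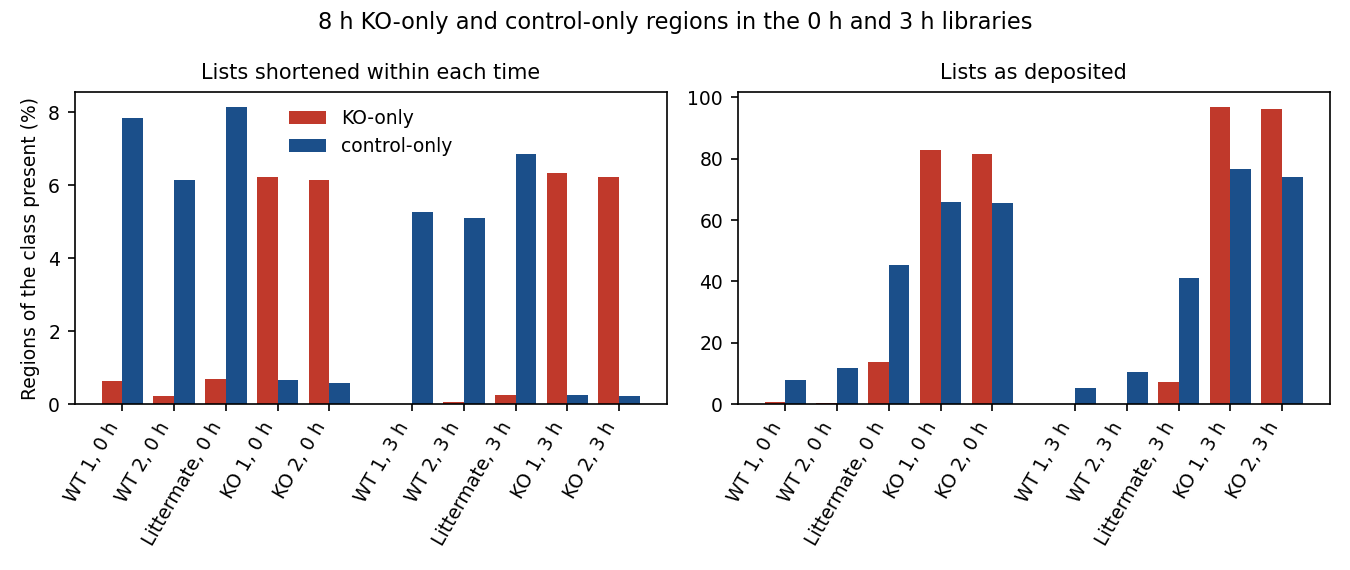
Share of the 8 h KO-only (red) and control-only (blue) regions present in each library at 0 h and 3 h, in lists shortened within each time (left) and as deposited (right); the vertical axes differ. In shortened lists KO libraries hold more of the KO-only and fewer of the control-only regions than any control library, and in the longer deposited lists KO libraries hold more of both.

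In the deposited lists, which differ in length, the KO libraries held more of both classes. KO-only regions were present at 81.6 to 96.9% in KO libraries and at 0.017 to 13.6% in controls, and control-only regions at 65.5 to 76.6% and 5.27 to 45.3%. Shared regions were present at 97.6 to 99.8% in KO libraries and 44.4 to 81.8% in controls. The difference between the KO-only and the control-only share was 35.4 points higher in KO (exact permutation p = 0.02). The order for control-only regions was thus the reverse of that in the shortened lists. The long KO lists reach ranks that no control list of these times has.

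Most KO-only regions of 8 h were already listed in KO macrophages before LPS. In both deposited KO lists at 0 h and at 3 h, 4409 of the 5722 (77.1%) were present, and 645 (11.3%) were in both at 3 h and in neither at 0 h. Of the control-only regions, 51.1% were in those 4 KO lists, and of the shared regions 96.9%. In all 6 KO lists and none of the 9 control lists of the 3 times were 1663 KO-only regions (29.1%), and 3 control-only regions were in all 9 control lists and in no KO list. The region at chr13:61905136-61906284 is 1 of these 3. The counts 1663 and 3 cannot be set against each other, since they use lists as deposited and the rule asks for 6 lists on one side and 9 on the other. At 0 h and 3 h the KO lists held 107045 to 115966 hotspots and the control lists 15042 to 61651. In KO lists of 107045 hotspots, the KO-only regions present had median ranks of 37099 (KO 1) and 37084 (KO 2) at 0 h. At 8 h these medians were 34029.5 and 33814.5. Among the named KO-only regions, some stood much higher in the KO lists at 8 h than at 0 h. The named regions were chosen for their ranks at 8 h, which by itself favours lower ranks at other times. At chr8:106644626-106646408 the ranks in KO 1 and KO 2 were 33777 and 28144 before LPS. They were 2487 and 2609 after 3 h and 1293 and 1336 after 8 h. The region at chr1:135188037-135189564 was in no KO list before LPS and had ranks of 8922 and 6163 after 3 h, then 1795 and 1453 after 8 h. In contrast, chr5:125706316-125707616 was among the densest KO regions throughout, with ranks of 1074 and 745 before LPS and 489 and 480 after 3 h. That region was also in 1 control list at each of the earlier times, WT 1 at 0 h (rank 13127) and the littermate at 3 h (rank 42130).

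Shared regions called at 8 h mostly had the same direction at the earlier times, where they were in all 5 lists. At 0 h, 514 of the 2600 regions called higher were in all 5 shortened lists, and 86.0% of these had a higher mean score in KO. Of the 681 called lower that were found there, 7.93% did. At 3 h the shares were 96.0% of 396 and 4.88% of 533, against 54.7% of all 8633 shared regions found in all lists of that time and 56.5% of 9472 at 0 h. With the 15 lists all at 15042 hotspots, 1904 regions were KO-only at 8 h, 1615 at 3 h and 1351 at 0 h, and 1258, 630 and 609 were control-only. Of the 8 h KO-only regions of that length, 39.0% were also KO-only at 3 h (46.0% of those of 3 h) and 21.3% at 0 h (30.2% of those of 0 h).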

How the data were processed

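DNase-seq hotspot lists of 5 libraries at 8 h LPS were compared, with the 10 lists of 0 h and 3 h used for presence at other times. The submitters' processing notes name mm9 and CASAVA. How reads were aligned and which program and threshold defined hotspots is not given in the sources used here. The deposited values, per the file headers, are tag densities (MaxD and AveD, a signal), a Z-score (a score) and a p-value for each hotspot. The authors listed each library separately. Lists were reduced to 46530 hotspots by MaxD (ties by AveD, then position), and a region was present where at least 1 bp was covered. Ranks were compared with limma 3.58.1 in R 4.3.3, and permutation tests used Python 3.11.15 with scipy 1.17.1. The presence and rank steps were tested on simulated data. Named are the 10 best-ranked KO-only and control-only regions and the 10 called shared regions with the largest rise and fall; regions on chromosome 18 were counted and not named. Coordinates are as deposited, and whether they start at 0 or 1 is not stated. Gene lists and markers fixed in the design were not used, for want of an mm9 annotation here. Members and lists were chosen with earlier results of these data known.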

Additional observations from a re-analysis of the deposited data

How the results depend on the processing

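Alternatives changed the list length, ranking measure, overlap, joining of hotspots, chromosomes, controls or libraries. KO-only regions numbered 2862 and control-only regions 1822 in lists of 0.5 times the length, 19036 and 599 in lists as deposited, and 17892 and 34307 with the littermate as the only control and lists of 110569 hotspots. With the littermate as the only control at the length of 46530, an alternative chosen after seeing the data, control-only regions numbered 7924 and the calls were 760 higher and 270 lower. Leaving out each library in turn gave 6448 to 7744 KO-only and 4090 to 4786 control-only regions, and 361 to 2651 shared regions called higher and 651 to 2465 called lower, the lowest calls without a KO library, where the fit has fewer degrees of freedom. Similar totals did not mean the same regions. Of the 2600 main calls higher in KO, 60.0% recurred without WT 1, 63.0% without WT 2 and 77.3% without the littermate. Of the 2825 lower calls, 57.5%, 61.0% and 73.2% did. Calls numbered 1278 higher and 1342 lower in lists of 0.5 times the length, and 8395 and 6436 with all union regions and absent ones ranked last. With the littermate as the only control at the longer length, 4546 were called higher and 3491 lower. A common Z-score minimum of 8.35, also chosen after seeing the data, gave 5874 KO-only and 3591 control-only regions and 2603 and 2776 calls. WT and KO libraries share only a replicate number. With a replicate block over these 4 libraries 2606 were called higher and 2465 lower, and deviations of same-numbered libraries correlated at -0.00387. The share difference at 0 h and 3 h was 12.8 points without WT (exact permutation p = 0.222) and 11.7 without the littermate (p = 0.0556), and, with p = 0.02 each, 35.4 in lists as deposited, 68.3 with all 15 lists at one length, 9.30 with 0.5 of a region covered and 12.5 with lists shortened by Z-score. Of the named regions, 14 of 150 KO-only and 20 of 150 control-only values left their class, and 7 of 136 and 6 of 135 calls of shared regions were lost. No depth is known from the lists, so no limit from read counts can be given.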
